A study of Mus musculus with 7 samples.

Results

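The naive pluripotency transcription factors are 10 genes, Pou5f1, Nanog, Klf2, Klf4, Klf5, Esrrb, Tfcp2l1, Zfp42, Tbx3 and Nr0b1, and their transcripts were measured here in mouse embryonic stem cells labelled as a time course of Brn2 induction. They were taken by name, by pairing the RefSeq transcript of each row of the deposited table with its gene, and for a gene with several rows the row of highest mean was used. All 10 were found among 20294 genes with a symbol, and all 10 had a mean value of at least 1, as did 6411 genes in all, which are called the genes tested. The cells were of the E14 line of mouse embryonic stem cells and were kept in 2i medium, whose inhibitors block MEK and GSK3. The cells of all libraries carried the same induction cassette, a Brn2-RFP GAVPO construct, in which the light-switched transcription factor GAVPO drives Brn2, a neural POU-domain factor listed as Pou3f2, together with a red fluorescent protein. Light came from an LED at 300 µW, and 1 library each was labelled 0, 2, 4, 6, 14, 24 and 48 h of light, so that no time has a replicate. No library without the cassette and no dark control at a later time was among the 7, so light, induction and time in culture cannot be told apart.

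In mouse embryonic stem cells these factors form a mutually activating network. Pou5f1 (Oct4) and Nanog sit at its core. Klf2, Klf4 and Klf5 are related zinc-finger proteins that can stand in for each other in self-renewal, and Esrrb, an orphan nuclear receptor, is held up when GSK3 inhibition relieves repression by Tcf7l1. Tfcp2l1, Klf4 and Tbx3 carry signals of the LIF receptor, Nr0b1 (Dax1) is a nuclear receptor without a classical DNA-binding domain that binds Oct4, and Zfp42 (Rex1) is a standard marker of the naive state. The naive members are lost when cells leave this state, while Pou5f1 is kept in the epiblast and lost on neural commitment.

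The induced gene went against its label in these values. Pou3f2 stood at 77, 36.9, 47.3, 96.2, 119, 41.3 and 7.19 in the libraries labelled 0, 2, 4, 6, 14, 24 and 48 h. It was below the 0 h library in 4 of the 6 later ones, so an induction that lasts over the course is not seen. Whether transcripts of the cassette are counted in this row was not tested, and every time in the text is the one on the label.

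The depth implied by the values was 7040000 to 16100000 reads per library, lowest at 4 h and next lowest at 2 h. Each value is a signal per kilobase of the whole genomic span, introns included, scaled to library size. Of the markers of the labelled cell type, Pou5f1, Sox2, Nanog, Zfp42 and Esrrb were above 0 in all 7 libraries, with Sox2 between 66.8 and 97. All but Sox2 are members, and 15429 to 16684 genes were above 0 per library, so a value above 0 alone marks no cell type. Of 10 fibroblast markers, all 10 had a mean under 1, and their summed value was 0.518 to 3.39 per library. Of 9 primitive endoderm markers, 8 had a mean under 1, and their sum was 0.931 to 5.87. Both sums were highest at 48 h. The summed value of 8 neuronal markers was 10.9 at 0 h, 19.9 to 23.3 from 2 to 6 h, and 42.2, 91.2 and 122 at 14, 24 and 48 h. Of these markers, Map2, Dcx, Elavl3 and Elavl4 had a mean under 1. Neurod1 was 60.7 at 24 h and 43.6 at 48 h, and Insm1 16.3 and 28.2. These are bulk samples, in which fewer naive cells and less RNA per cell cannot be told apart, and the part of any neuronal cells in the values below was not tested.

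Of the 10 factors, 5 had their highest value in the library labelled 2 h, their lowest in that labelled 14 or 24 h and a higher value at 48 h than at 14 h: Nanog, Klf2, Esrrb, Tfcp2l1 and Tbx3, where Nanog at 2 h was level with 0 h. This shape was defined after the values of the 10 were seen, so its counts are a description and no test. It held for 1.81% of the genes tested. With the GC trend removed it held for 3 of 10 members (2.5% of the genes tested), and with quantile normalization for 4 of 10 (2.03%). Each step taken alone held for more. The 2 h library held the highest value of 7 of the 10, against 7.85% of the genes tested. The lowest value lay at 14 or 24 h for 7 of the 10, against 23.7% of the genes tested. All 10 were higher at 2 h than at 0 h (45.6% of the genes tested were), though Nanog (0.00 log2), Klf5 (0.03) and Zfp42 (0.07) hardly so. The median log2 ratio was 0.50 with a range of 0.00 to 1.54, against a median of -0.03 over all genes tested. With quantile normalization Nanog (-0.18), Klf5 (-0.03) and Zfp42 (-0.19) were lower at 2 h than at 0 h. All 10 were lower at 14 h than at 2 h (45.5% of the genes tested were), by a median log2 ratio of -0.75 with a range of -1.58 to -0.16, against a median of 0.04 over all genes tested. All 10 were also lower at 14 h than at 6 h (49.7% of the genes tested), and 8 of 10 were higher at 48 h than at 14 h (46.8%). Each of these compares 1 library with 1 other, so there is no test.

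**Figure D1:**
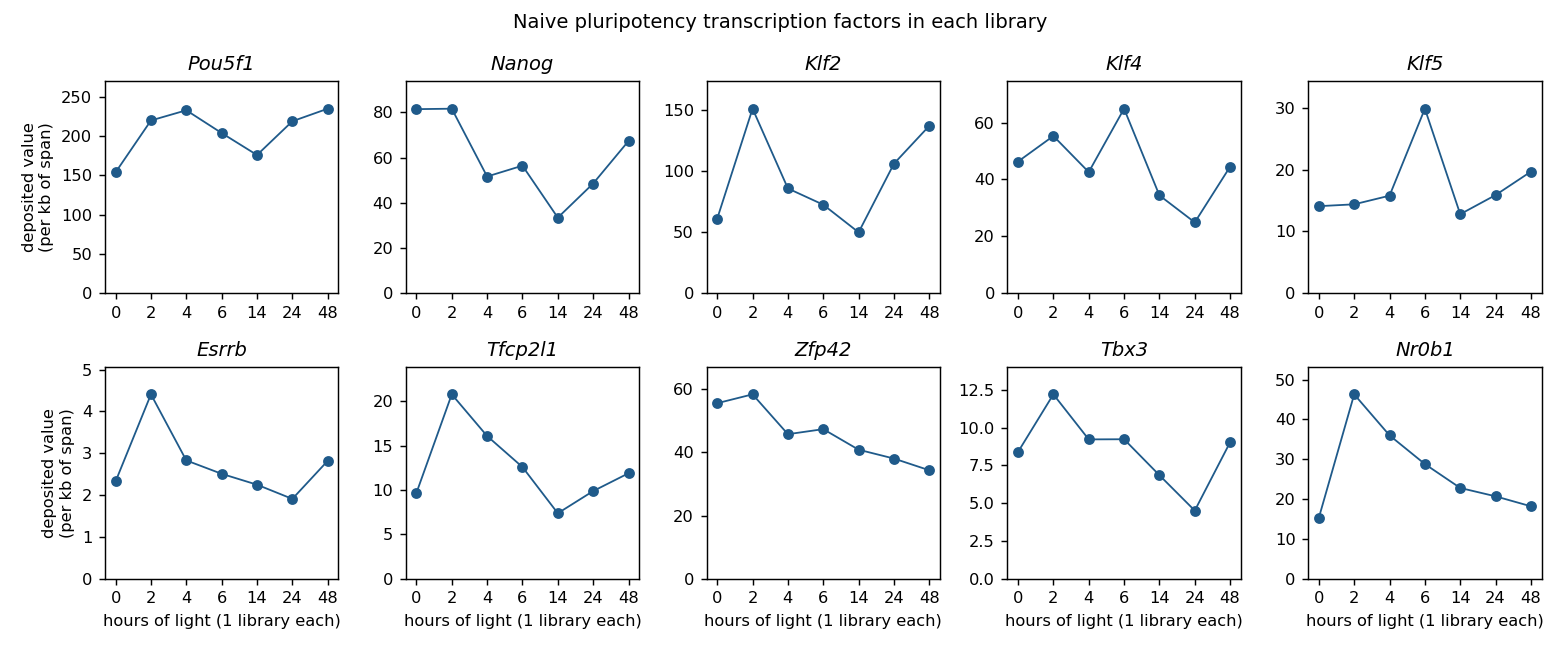
Deposited value of each of the 10 genes (vertical axis, per kilobase of genomic span, from 0) in the libraries at 0, 2, 4, 6, 14, 24 and 48 h of light (horizontal axis, even steps, 1 point per library). The highest point lies at 2 h in 7 panels, at 6 h for Klf4 and Klf5 and at 48 h for Pou5f1.

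The values of the libraries bent differently with GC content, and the transcripts of the 10 genes ranged from 45.8% GC (Nanog) to 61.6% GC (Klf2). With the GC trend of each library removed, 10 of 10 were still lower at 14 h than at 2 h (40.9% of the genes tested were), 9 of 10 lower at 14 h than at 6 h (46.9%) and 9 of 10 higher at 2 h than at 0 h (37.4%). The later return was less general: 7 of 10 were then higher at 48 h than at 14 h (45.8% of the genes tested), with Esrrb at -0.06 log2, and 6 of 10 higher at 48 h than at 24 h (57.5%), with Klf2 at -0.35. The 2 h library was then the highest for 6 of 10, against 8.59% of the genes tested, and 14 or 24 h the lowest for 8 of 10, against 28.9%. With quantile normalization, 7 of 10 were higher at 2 h than at 0 h (49.5% of the genes tested were), 10 of 10 lower at 14 h than at 2 h (49.5%), 9 of 10 lower at 14 h than at 6 h (46.3%) and 8 of 10 higher at 48 h than at 14 h (43.8%).

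**Figure D2:**
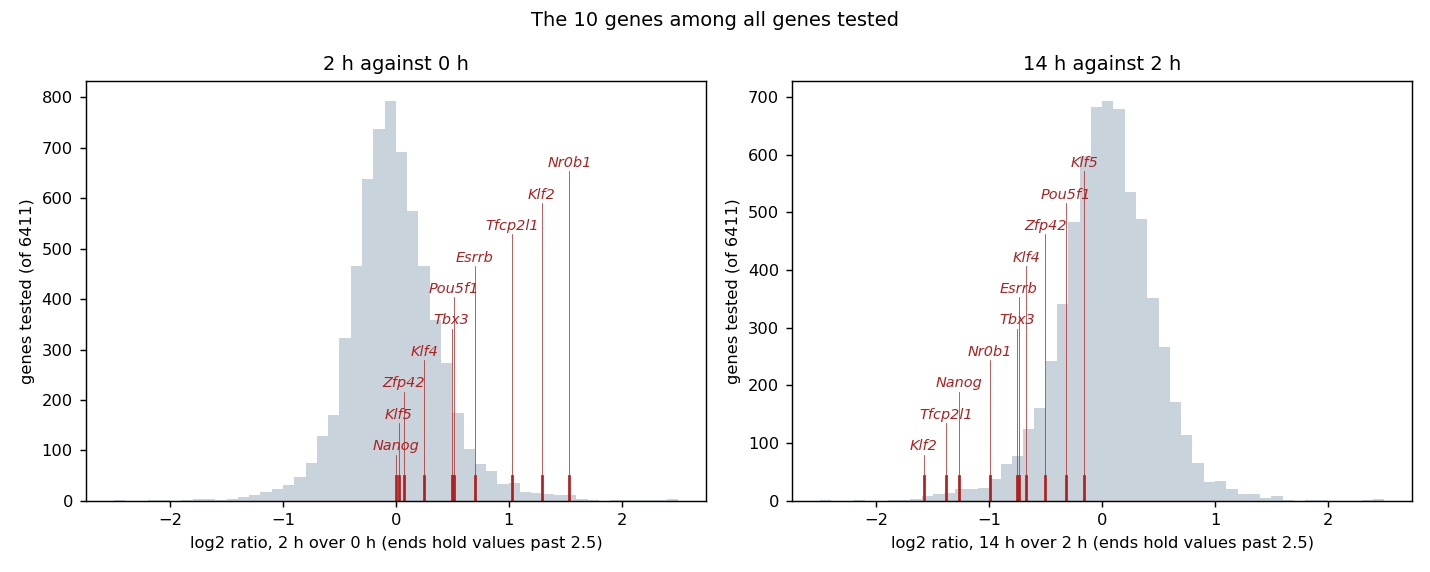
Histograms of the log2 ratio of 2 h over 0 h (left) and of 14 h over 2 h (right) for the 6411 genes tested (vertical axis, number of genes), with the 10 factors marked in red. The factors lie from 0.00 to 1.54 on the left and from -1.58 to -0.16 on the right.

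The promoters of 4 members are shown as examples of what the windows hold. Nanog and Zfp42 hold the core of the octamer, the element read by POU factors, Klf2 holds paired GC boxes, and Nr0b1, the member with the largest ratio of 2 h to 0 h, holds none of the elements searched, as does Esrrb. Sequences are from RefSeq on GRCm38.p6, 250 bases before to 50 bases after the annotated start, written along the gene's own strand, with matches in capitals: Nanog at chr6:122707315-122707614 (plus strand), Zfp42 at chr8:43306960-43307259 (minus strand), Klf2 at chr8:72318812-72319111 (plus strand) and Nr0b1 at chrX:86191525-86191824 (plus strand). All positions are of this build and not of mm9, to which the reads were aligned.
Nanog: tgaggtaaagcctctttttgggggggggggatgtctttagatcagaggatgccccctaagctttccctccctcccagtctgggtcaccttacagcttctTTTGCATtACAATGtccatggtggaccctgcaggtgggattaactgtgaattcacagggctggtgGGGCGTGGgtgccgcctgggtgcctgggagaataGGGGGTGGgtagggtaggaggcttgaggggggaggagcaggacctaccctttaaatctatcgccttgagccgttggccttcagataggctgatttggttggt
Zfp42: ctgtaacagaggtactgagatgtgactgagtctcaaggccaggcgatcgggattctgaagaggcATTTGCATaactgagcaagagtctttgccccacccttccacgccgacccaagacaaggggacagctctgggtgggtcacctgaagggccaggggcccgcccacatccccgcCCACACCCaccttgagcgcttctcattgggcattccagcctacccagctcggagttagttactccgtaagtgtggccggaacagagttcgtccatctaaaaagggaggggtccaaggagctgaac
Klf2: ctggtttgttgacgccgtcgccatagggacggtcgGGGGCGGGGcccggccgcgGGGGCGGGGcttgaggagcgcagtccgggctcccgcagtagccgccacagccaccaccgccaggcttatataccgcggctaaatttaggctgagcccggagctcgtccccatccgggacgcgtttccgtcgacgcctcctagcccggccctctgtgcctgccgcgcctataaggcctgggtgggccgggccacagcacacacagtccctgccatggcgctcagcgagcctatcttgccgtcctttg
Nr0b1: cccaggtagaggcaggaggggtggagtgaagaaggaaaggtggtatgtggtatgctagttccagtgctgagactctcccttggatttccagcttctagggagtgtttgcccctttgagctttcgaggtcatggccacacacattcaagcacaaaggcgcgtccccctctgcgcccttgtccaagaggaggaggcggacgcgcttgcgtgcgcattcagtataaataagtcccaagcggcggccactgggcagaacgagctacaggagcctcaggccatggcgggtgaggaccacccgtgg
Counted from the start, Nanog holds the octamer core ATGCAAA at -151 to -145 on the reverse strand and, 1 base on, the Sox element ACAATG at -143 to -138. Zfp42 holds the full octamer ATGCAAAT at -186 to -179 on the reverse strand, which includes the core. Of 32851 promoters of this length, 4.63% hold ATGCAAA on either strand, 1.74% ATGCAAAT and 12.6% ACAATG. The Klf element GGGNGTGG lies at -86 and -52 in Nanog and at -75 in Zfp42, and also in the promoters of Pou5f1 and Tfcp2l1, so that 4 of the 8 members with a promoter in the table hold it, against 17.6% of all promoters. The GC box GGGGCGGGG lies at -215 and -196 in Klf2 and is found in the promoters of Pou5f1 (1 match) and Klf4 (3 matches) as well, against 11.4% of all promoters. The nuclear receptor half-site AAGGTCA (4.72% of all promoters) and the Stat element TTCNNNGAA (8.3%) were in none of the 8 windows. A match is a run of letters and not a measured site.

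Nr0b1 had the sharpest early change. In order of time, from 0 to 48 h, its values were 15.3, 46.3, 36, 28.8, 22.8, 20.7 and 18.2. From 2 h on, each library was lower than the one before, and 0 h was the lowest of all. The log2 ratio of 2 h to 0 h was 1.54 (with 1 added to each value, as in all ratios between libraries), exceeded by 0.39% of the genes tested. Nr0b1, Klf2 and Tfcp2l1 were the 3 of 10 members at least 2-fold higher at 2 h than at 0 h, against 1.89% of the genes tested (2 of 10 with quantile normalization, where Tfcp2l1 had 0.97), and Nr0b1 alone was so at 4 h (1.18 log2, against 1.22% of the genes tested). These values rest on 858 to 1643 reads per library, a number recovered from the values, and the 95% Poisson interval of the lowest is 802 to 917, so counting error is small beside the change; it covers neither the spread between cultures nor amplification.

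Tfcp2l1, a CP2-family factor downstream of LIF, and Esrrb had the same order of libraries from 2 to 14 h, as had Klf2 and Nr0b1. Tfcp2l1 stood at 9.68, 20.8, 16.1, 12.6, 7.39, 9.89 and 11.9 in order of time. Its 2 h library was the highest and its 14 h library the lowest, a ratio of 2.82. Esrrb stood at 2.33, 4.41, 2.83, 2.51, 2.25, 1.91 and 2.82 in order of time, highest at 2 h and lowest at 24 h. Its other transcript row, spanning more of the gene, gave 1.36, 2.66 and 1.16 in the 0, 2 and 24 h libraries, and the ratio between its rows stayed within 1.61 and 1.71. Its log2 ratio of 2 h to 0 h was 0.70, exceeded by 4.48% of the genes tested.

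The 3 Klf genes did not move as a block. Klf2 was 61, 151, 85.7, 72.4, 49.8, 106 and 137 in order of time. It was high at both 2 h and 48 h, with 14 h lowest, and its range of 3.03-fold was level with that of Nr0b1 and above those of the other 8. At 48 h it was the member at least 2-fold above 0 h (1.16 log2, against 7.89% of the genes tested), but with the GC trend removed that ratio was 0.22. Klf5 had a single high library at 6 h, with values of 14.1, 14.4, 15.8, 29.9, 12.8, 15.9 and 19.7 in order of time. It was the member at least 2-fold above 0 h at 6 h (1.03 log2, against 2.48% of the genes tested, and 1.12 with the GC trend removed), but not with quantile normalization (0.91), a pseudocount of 5 (0.87) or the median of the 2, 4 and 6 h libraries as baseline (0.88). Klf4 was 46.3, 55.3, 42.6, 64.9, 34.4, 24.9 and 44.5 in order of time, likewise highest at 6 h, and lowest at 24 h. The profiles of Klf2 and Klf4 were the most unlike of all 45 pairs of members, with a root-mean-square difference of 0.65 between their centred log2 values over 7 libraries as deposited. With the GC trend removed Klf2 and Klf5 were (0.79, against 0.67 for Klf2 and Klf4). Those of Klf4 and Tbx3 were among the most alike, at 0.19.

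Tbx3, a T-box factor downstream of LIF, was 8.39, 12.2, 9.22, 9.23, 6.85, 4.51 and 9.03 in order of time. Like Klf4 and Esrrb it was lowest at 24 h, and at 48 h its log2 ratio to 0 h was 0.10 as deposited and -0.20 with the GC trend removed. An antisense RNA gene, Tbx3os1, overlaps Tbx3, and no source used here says whether strand was used in counting, so reads of this pair cannot be told apart. The other transcript row of Tbx3 had the same highest and lowest libraries (12 at 2 h and 4.64 at 24 h).

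Nanog was 81.4, 81.6, 51.6, 56.4, 33.4, 48.5 and 67.3 in order of time, so that 2 h was level with 0 h and 14 h was lowest. It was the member at least 2-fold below 0 h at 14 h (-1.26 log2, against 1.98% of the genes tested, and -1.10 with the GC trend removed). With the median of the 2, 4 and 6 h libraries as baseline Nanog was at -0.74, and Tfcp2l1 was the member past 2-fold, at -1.03. Zfp42 was not higher at 48 h than at 24 h as deposited (-0.14 log2, but 0.21 with the GC trend removed): it was 55.5, 58.3, 45.7, 47.3, 40.8, 38 and 34.3 in order of time, with all of the 3 latest libraries below all of the 4 earlier ones. Pou5f1 varied least, with 154, 220, 233, 204, 176, 219 and 235 in order of time. It was highest at 48 h and lowest at 0 h, and so was its other transcript row, at 130 and 77.9. With the GC trend removed it was highest at 4 h (0.51 log2 over 0 h) and lowest at 14 h (-0.18), with 48 h at -0.10. Its SD over libraries, 0.23 on the log2 scale, was under the median of 0.26 over the genes tested, while those of Klf2 (0.59) and Nr0b1 (0.54) were above those of 95.3% and 93.7% of the genes tested. The 1 added to each value narrows the SD of genes with low values. Over tested genes with a mean of at least 5 the median SD was 0.30. Values were also taken relative to Pou5f1 in the same library, with nothing added, which removes library scaling. Nanog was then lower than at 0 h in all 6 later libraries, by -1.48 log2 at 14 h, and Zfp42 in all 6, by -1.30 at 48 h. Pou5f1 itself was lowest at 0 h as deposited, which lowers every later ratio. At 2 h the ratios were -0.51 for Nanog and -0.44 for Zfp42, though neither gene's own value was below 0 h. Pou5f1 is richer in GC than both, and with the GC trend removed Nanog was at -0.92 at 14 h but 0.21 at 48 h, and Zfp42 at -0.27 at 48 h and 0.02 at 6 h. The overlapping antisense gene Gm19553 of Pou5f1, and processed pseudogenes annotated for Nanog and Zfp42, are further places where reads may have been shared. So are an rRNA gene (Gm22094), an snRNA gene (Gm23497) and a processed pseudogene (Gm28882), all of which overlap Tfcp2l1.

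**Figure D3:**
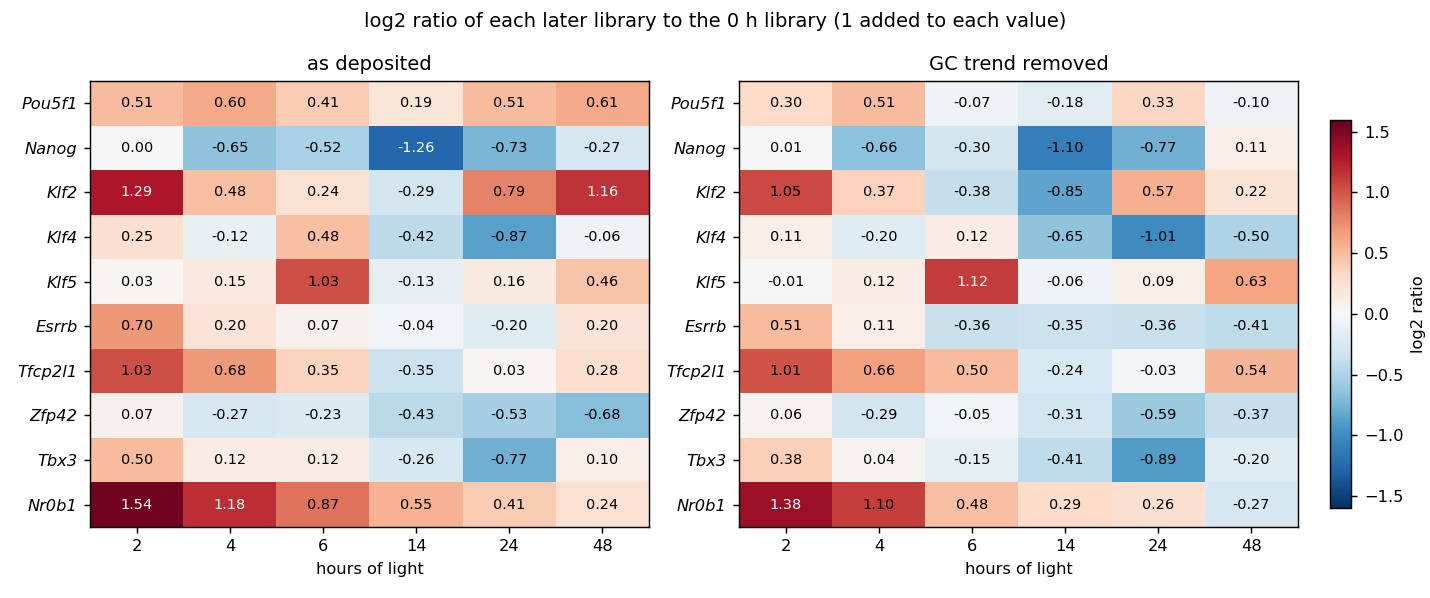
Log2 ratio of each later library (columns, 2 to 48 h of light) to the 0 h library for the 10 genes (rows), as deposited on the left and with the GC trend of each library removed on the right; red is higher than 0 h and blue lower. Nr0b1, Klf2 and Tfcp2l1 stand out at 2 h on both sides, and Nanog at 14 h.

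Set beside Pou3f2, the library labelled 14 h, with the lowest Klf2, Klf5, Nanog and Tfcp2l1 values, had its highest value (119) and the library labelled 2 h a low one (36.9). The other libraries did not keep to this order. Pou3f2 was 96.2 at 6 h, where Klf4 and Klf5 were highest, and 41.3 at 24 h, where Klf4, Esrrb and Tbx3 were lowest. At 48 h it was 7.19, where Zfp42 was lowest and Pou5f1 highest. A relation to Pou3f2 was not tested. The related POU gene Pou3f1 was also highest at 14 h (446) and lowest at 48 h (18), with 117 at 2 h.

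The trend with time was tested with limma over all 7 libraries as the slope on log2 of hours plus 1, given as the fitted log2 change at 48 h over 0 h. By this test 0 of the 10 members passed at an adjusted p under 0.05, against 0.359% of the genes tested (19 rose and 4 fell; 0.296% and 0.0624%). The fitted change was negative for 7 of 10, against 49.5% of the genes tested, with a median of -0.36 and a range of -0.76 to 0.49, beside a median of 0.01 over all genes tested. Zfp42 came nearest: -0.76 ± 0.24 (SE), unadjusted p = 0.011 and adjusted p = 0.138 by limma. It was the member of 10 with an unadjusted p under 0.05, against 21.5% of the genes tested. On reads recovered from the values its adjusted p was 0.094 by limma-voom, and with the GC trend removed its change was -0.54 (adjusted p = 0.255). Pou5f1 (0.37 ± 0.28, adjusted p = 0.449) and Klf2 (0.49 ± 0.57, adjusted p = 0.627) had positive fitted changes that were negative with the GC trend removed, at -0.16 and -0.23. A slope cannot show a high at 2 h with a later return, and for Nr0b1 it turned on the first library: -0.33 ± 0.54 with all 7, and -1.79 ± 0.38 without the 0 h library (unadjusted p = 8.0e-04, adjusted p = 0.053 by limma), which is not a call. The value without the 0 h library is still given for the full 0 to 48 h, so it is drawn out past the libraries fitted. The log2 ratio of Nr0b1 at 48 h to 2 h was -1.30.

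Curvature was therefore tested too, as the quadratic term of the same fit, given as the fitted log2 value at 6 h, the middle of the time scale, minus the mean of the fitted values at 0 and 48 h. Positive values are an arch and negative ones a dip. No gene of the 6411 tested passed at an adjusted p under 0.05 by limma, and 190 (2.96%) had an unadjusted p under 0.05. On recovered reads limma-voom called 0 of 13480 genes as well, with 661 at an unadjusted p under 0.05. Of the members, 0 of 10 passed (0% of the genes tested) and 1 of 10, Nr0b1, had an unadjusted p under 0.05, with an arch of 0.96 ± 0.32 (SE; unadjusted p = 0.012, adjusted p = 1.0 by limma). Without the 0 h library its curvature was -0.50. Curvatures with a library left out are likewise given for the full 0 to 48 h, also where an end is missing. Nanog had the deepest dip with all 7 libraries, -0.54 ± 0.31 (adjusted p = 1.0 by limma), which ran from -1.70 without the 0 h library to -0.07 without the 48 h one, and Klf2 was deeper without the 0 h library, at -2.44. With 1 library per time, neither fit passed any of the 10, and this does not show that they did not change.

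**Figure D4:**
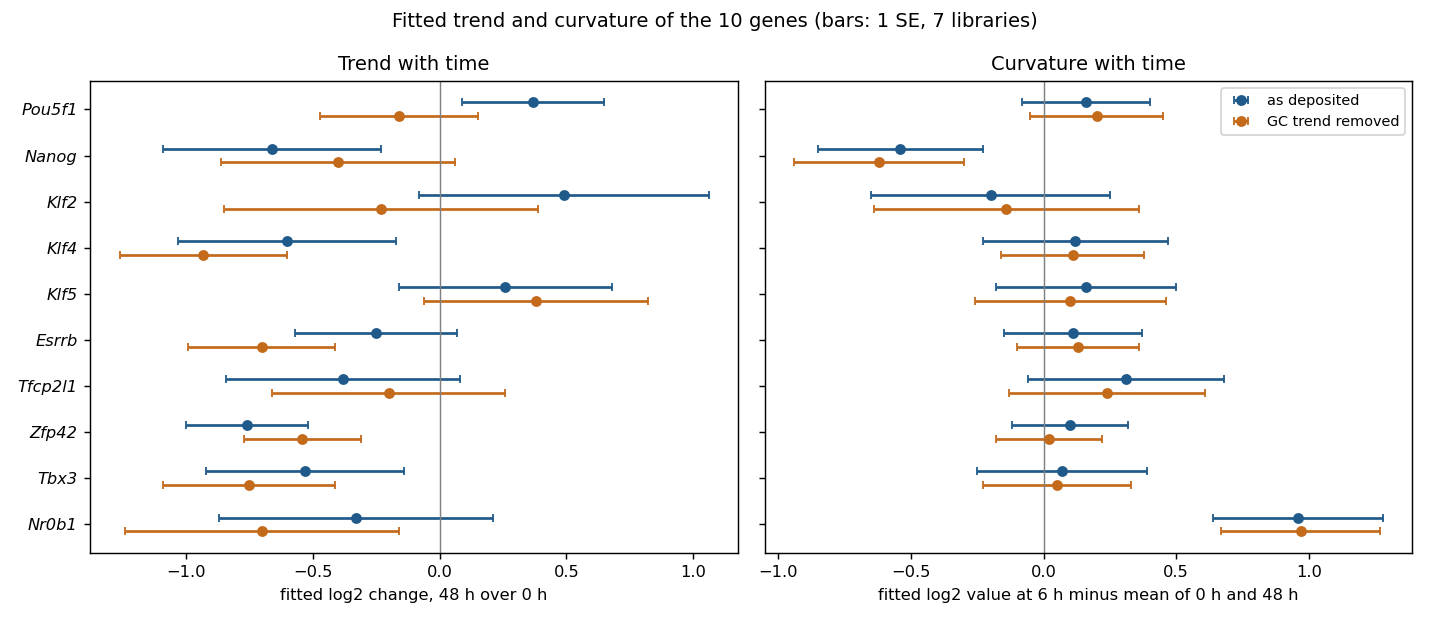
Fitted trend (left, log2 change at 48 h over 0 h) and fitted curvature (right, log2 value at 6 h minus the mean of 0 and 48 h) of the 10 genes; points are estimates, bars 1 SE from the limma fit on 7 libraries, in blue as deposited and in orange with the GC trend removed. Trends lie from -0.76 (Zfp42) to 0.49 (Klf2) as deposited, and Nr0b1 has the largest curvature, 0.96.

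Because the deposited values are divided by the genomic span, they do not rank the genes by mRNA. When reads were divided by mRNA length instead, per kilobase of mRNA and scaled to library size alike, Esrrb, whose row spans 100 kb for an mRNA of 4.2 kb, moved from rank 10 at 2.72 per kilobase of span to rank 8 at 64.9 ± 19.4 (mean and SD over the 7 times). Zfp42 moved from rank 4 to rank 2, at 307 ± 59.4 per kilobase of mRNA, and Klf2, whose span is 1.4 times its mRNA, from rank 2 to rank 4, at 133 ± 53.8. Pou5f1 led on both scales, at 375 ± 55.5 per kilobase of mRNA. That level comes from its lower transcript row (mean 108 per kilobase of span), since the span of the row used elsewhere (mean 206) could not be set. Nanog, at rank 3 on both, was at 192 ± 56.9. Klf4 (78.8), Tfcp2l1 (78), Klf5 (76.9), Esrrb and Nr0b1 (62) lay within their spread over times of each other: Klf4 was above Tfcp2l1 in 4 of 7 libraries, and Esrrb above Nr0b1 in 3 of 7. Tbx3 was lowest, at 24.7 ± 6.9, below Nr0b1 in 7 of 7 libraries. This scale takes all reads as exonic, and intronic reads would raise the long genes.

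**Figure D5:**
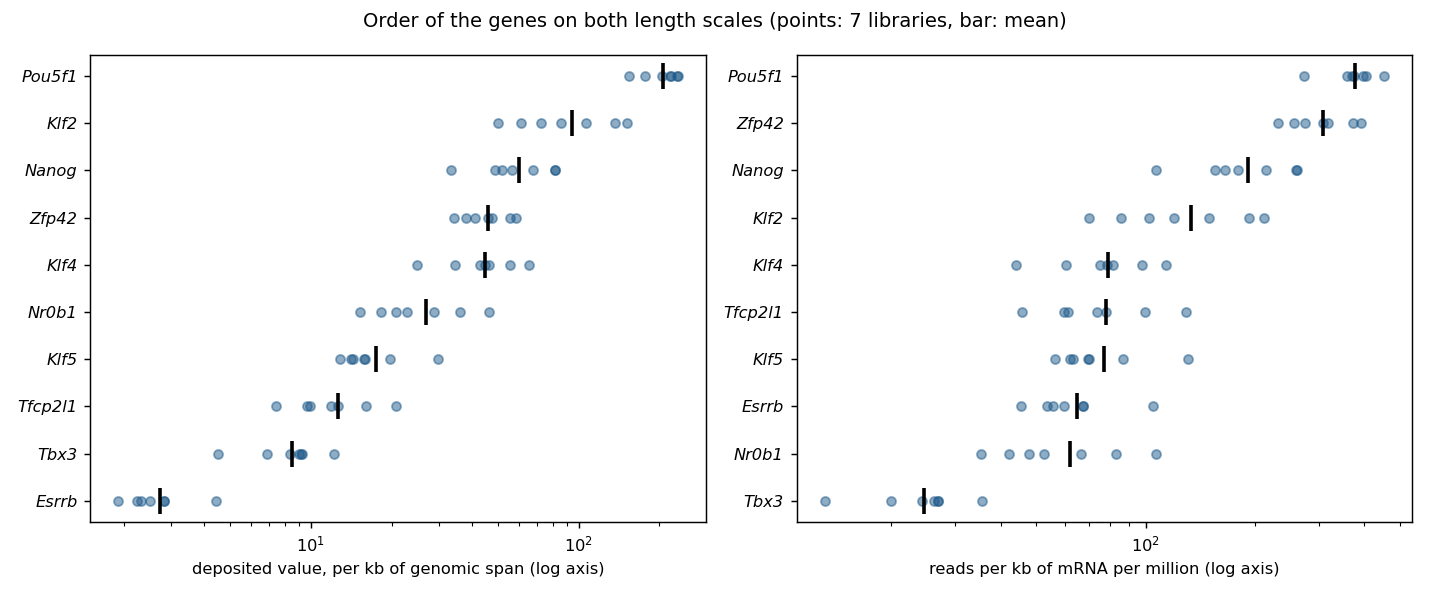
The 10 genes ordered by mean level on each of 2 length scales: the deposited value per kilobase of genomic span (left) and reads per kilobase of mRNA, scaled to library size (right), both on log axes. Points are the 7 libraries and the black bar their mean; Esrrb is last on the left and above Nr0b1 and Tbx3 on the right.

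The genes of most similar profile were found among those with a mean of at least 10 and an SD over libraries at least that of the member divided by 2, which left 675 to 1270 genes per member, by the root-mean-square difference of centred log2 values over the 7 libraries. Small RNAs and predicted genes were not considered. Klf2 was closest to Tdh, threonine dehydrogenase, an enzyme on which mouse embryonic stem cells depend (0.17): Tdh stood at 22.8, 52.4, 40.4, 32.8, 25.1, 44.2 and 57.2 in order of time. Both were higher at 2 h and at 48 h than at 14 h. Tfcp2l1 was closest to Tob1, an antiproliferative protein (0.15), and next to Fgf4, the FGF ligand made by naive cells (0.18), which was 61.3, 105 and 49.8 in the 0, 2 and 14 h libraries. Klf5 was closest to Apoe (0.11), which likewise had its highest library at 6 h (214, against 95.8 at 0 h), and Klf4 to Sesn2, a stress-induced sestrin (0.14). Pou5f1 was closest to the ribosomal protein gene Rps12 (0.04), Zfp42 to Hexim1 (0.09), Esrrb to Wdr5 (0.13), Nanog to Rpp25 (0.25) and Nr0b1 to Ldha (0.27). With 7 points per profile, such nearness is a description.

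Other naive genes and the pathways that feed these factors were counted in the same way. Of 18 tested genes of a list of naive markers and effectors, 0 rose and 0 fell in the trend test, where 0.296% and 0.0624% of the genes tested did. Of the same 18, 14 were higher at 2 h than at 0 h (45.6% of the genes tested were). At 14 h, 13 were lower than at 2 h (45.5% of the genes tested were). Dppa5a, an RNA-binding protein of naive cells, was 491 in the 48 h library and 1076 in the 0 h library (trend -1.27 ± 0.30, adjusted p = 0.079 by limma), and Tex19.1, a germline gene active in naive cells, was 18.7 at 48 h and 116 at 0 h (adjusted p = 0.126). Not all of the list ran this way, since 8 of 18 had a positive fitted trend, among them Gdf3, a TGF-beta family ligand, at 47.4 at 48 h and 27.5 at 0 h (1.05 ± 0.52, adjusted p = 0.263). Of 14 tested core factors and partners, 1 rose (0.296% of the genes tested did). It was the homeobox gene Gbx2 (27.9 at 48 h and 1.42 at 0 h, trend 3.15 ± 0.52, adjusted p = 0.041 by limma). In this list 7 of 14 were higher at 2 h than at 0 h and 7 were lower at 14 h than at 2 h. Both counts were near the shares over all genes tested (45.6% and 45.5%). Of 10 tested genes of the LIF receptor and STAT3 pathway, 1 rose and 0 fell (0.296% and 0.0624% of the genes tested did). Of these 10, 8 were higher at 2 h than at 0 h (45.6% of the genes tested were). The riser was Gadd45g, a growth-arrest gene (5.71 in the 48 h library and 0 in the 0 h library, trend adjusted p = 0.041 by limma).

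A list of feedback and other target genes of the MAPK pathway, which the MEK inhibitor of 2i holds down, had 12 tested members, of which 0 rose or fell. Of these 12, 10 were higher at 2 h than at 0 h (45.6% of the genes tested were). Dusp6, the ERK phosphatase, was 8.57 at 2 h and 2.38 at 0 h (trend adjusted p = 0.220), while Spry2, a Sprouty inhibitor of the pathway, was 9.7 at 2 h and 13.2 at 0 h. Ccnd1, cyclin D1, a cell-cycle gene and no feedback gene, had the largest fitted trend of those named. It stood at 48.7 at 48 h and 2.1 at 0 h (3.57 ± 0.65, adjusted p = 0.052 by limma), where the trend of Dusp6 was 0.99 ± 0.43. Of 16 listed Wnt targets only 4 were tested, since the rest had a mean under 1. These 4 were all higher at 2 h than at 0 h (45.6% of the genes tested were). Among them Notum, a Wnt-inactivating enzyme, stood at 6.33 at 2 h and 3.44 at 0 h (trend adjusted p = 0.459). Of 14 tested formative and primed epiblast genes, 3 rose (0.296% of the genes tested did) and 0 fell. The 3 were Sox3 (3.40 ± 0.31, adjusted p = 0.004 by limma), Otx2 (2.19 ± 0.33, adjusted p = 0.036) and Cldn6 (2.52 ± 0.39, adjusted p = 0.036). The list did not rise as a whole. Its sum over all 20 listed genes was lower in the 48 h library (184) than in the 0 h library (313). The highest sum, 524, belonged to the 14 h library. Fgf5, Dnmt3a and Dnmt3b, also listed, had a mean under 1 and were not tested. Among the 14 tested, 11 had a positive fitted trend and 3 a negative one. Of the same 14, 10 were higher at 2 h than at 0 h. At 14 h, 1 of 14 was lower than at 2 h (45.5% of the genes tested were), where 10 of 10 naive factors were. Among 8 neuronal markers, 4 were tested and 2 rose (0.296% of the genes tested did). The 2 were the neurogenic factors Neurod1 (43.6 at 48 h and 3.65 at 0 h, adjusted p = 0.041 by limma) and Insm1 (28.2 at 48 h and 0.245 at 0 h, adjusted p = 0.049). These calls rest on single libraries and on the scale: 1 gene of all tested was called without the 4 h or the 24 h library, 2 without the 48 h library, and 0 with the GC trend removed, where 1171 had an unadjusted p under 0.05.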

How the data were processed

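Per the submitters' processing notes, reads were aligned with Bowtie2 to mm9. RNeasy extraction and Lexogen SENSE libraries are named in the labels' protocols. The method of counting and any use of strand are not given. The authors deposited 1 value per RefSeq transcript and library with no unit named. Multiplied by the genomic span and a library factor, 89% to 92% of values between 2 and 20 reads in genes of 1 transcript lay within 0.1 of a whole read, so the values behave as RPKM per kilobase of span; reads and depths given here are recovered in this way, with spans from GRCm38, and are approximate. Symbols were matched by accession in the RefSeq genes of GRCm38.p6 (26930 of 30673 rows). Left out were 3320 rows of start sites, which held 0 throughout, and 695 further placements.

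Trend and curvature were fitted with limma 3.58.1 in R 4.3.3 (lmFit, eBayes with a mean-variance trend) on log2 of the value plus 1 for 6411 genes of mean at least 1, with 5 and 4 residual degrees of freedom and Benjamini-Hochberg adjustment over all of them. The fits were tested on simulated data. P-values measure the spread of 7 single libraries about a line. For the GC trend, each library got a natural spline (5 degrees of freedom) over genes of mean at least 5. Ratios between libraries have no test. The members and gene lists were chosen with earlier results of these data known, and the comparisons with the 2 h, 6 h and 14 h libraries, and the motifs, after values were seen. Named genes were the members, called members of each list or up to 4 with the largest trends and a mean of at least 5, and for each member the 2 genes of most similar profile (mean at least 10); some of these are left unreported.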

Additional observations from a re-analysis of the deposited data

How the results depend on the processing

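Trend and curvature of the 10 members were refitted under each alternative, giving 70 values of each with 1 library left out and 109 of each under the other alternatives, of which 0 passed at an adjusted p under 0.05. The lowest adjusted p was 0.053 (trend of Nr0b1 without the 0 h library). The count of genes with a called trend was unsteady: 23 of 6411 as reported, 57 of 6479 with trimmed-mean scaling, 38 with a pseudocount of 0.25, 190 with time in hours and 55 with time as rank. With limma-voom on recovered reads it was 404 (298 up, 106 down) of 13480 genes. Nearer the reported count were 18 with quantile normalization, 25 of 6904 with all rows of a gene summed and 21 of 2459 with a mean of at least 5. The count was 0 of 17842 without a filter (3078 at an unadjusted p under 0.05), 0 with a pseudocount of 5 (1366) and 0 with the GC trend removed (1171), and 1 to 76 with 1 library left out. The curvature count was 0, and 0 to 1 with 1 library left out. The fitted trend turned negative with the GC trend removed for Pou5f1 (-0.16) and Klf2 (-0.23). Leaving out 1 library moved the trend of Klf2 between -0.01 and 0.91 and that of Nr0b1 between -1.79 and 0.04. Fits without the 0 h or the 48 h library are given for the full 0 to 48 h, past the libraries fitted. The sign of the curvature was not stable. With time as rank, where the middle of the scale is again 6 h, it was -0.02 for Esrrb and -0.04 for Tbx3. With time in hours the middle is 24 h, so those values set the fit at 24 h against the ends and are not the same quantity. They were -0.00 for Pou5f1, -0.76 for Klf4, -0.12 for Klf5, -0.41 for Esrrb, -0.55 for Tfcp2l1, -0.25 for Zfp42 and -0.78 for Tbx3. With 1 library left out the curvature on the main time scale ran from -0.48 to 0.41 for Pou5f1, -1.70 to -0.07 for Nanog, -2.44 to 0.40 for Klf2, -0.70 to 0.94 for Klf4, -0.21 to 0.53 for Klf5, -1.05 to 0.61 for Esrrb, -1.45 to 1.02 for Tfcp2l1, -0.17 to 0.16 for Zfp42, -1.15 to 0.92 for Tbx3 and -0.50 to 1.5 for Nr0b1. The members past 2-fold in the 2, 4, 6, 24 and 48 h libraries numbered 3, 1, 1, 0 and 1. Against the median of the 2, 4 and 6 h libraries in place of 0 h these were 0, 0, 0, 1 and 0. At 14 h the number was 1 under each setting, Nanog except against that median, where it was Tfcp2l1. With quantile normalization they were 0 at 6 h, 2 at 24 h and 0 at 48 h, with the GC trend removed 1 at 24 h and 0 at 48 h, and with a pseudocount of 5, 0 at 6 h. The members with the whole shape (high at 2 h, low at 14 or 24 h, higher again at 48 h), a count added after seeing the data, were 5 as deposited, 3 with the GC trend removed and 4 with quantile normalization. The causes of these changes were not tested. Esrrb has no value under a mean of at least 5. The 0 h library, being single, decides each 0 h ratio. No paired analysis was possible because each time has 1 library, so that a replicate number, which is 1 throughout, pairs nothing.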
